A study of Mus musculus with 45 samples.

Results

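The arrays described here hold RNA from the inguinal fat of male C57BL/6J mice at day 56, after over-nutrition in the suckling period (LON) or the control condition, followed by the same chow. They are 6 of 45 arrays, chosen by the diet and age in the sample labels, 3 from 1 LON pool and 3 from 1 control pool. LON pups grew up in litters of 4 whose dams ate a diet with 58 kcal % fat. Control pups grew up in litters of 8 whose dams ate a breeder diet with 22 kcal % fat, and the under-nourished pups (LUN) used as a further comparison grew up in litters of 8 whose dams were given 50% of the control food. From weaning all mice ate chow with 11 kcal % fat, so that at day 56 no mouse was on a high fat diet. RNA of 12 mice was pooled for each diet and age, and every pool was run on 3 Mouse Genome Survey arrays of Applied Biosystems. The 3 arrays are therefore technical replicates of 1 pool, and every p-value below measures the spread between arrays, not between mice.

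Inguinal fat is a white depot of stored triacylglycerol in which brown adipocytes also arise in young mice. These cells burn fat for heat through Ucp1, the uncoupling protein of their mitochondria. Leptin, encoded by Lep, signals the size of the fat store, and Mest is known for rising with fat expansion. The depot lies close to skeletal muscle, skin, mammary tissue and a lymph node, whose transcripts can be present in dissected tissue. In bulk RNA a different number of cells of one type and a different amount of RNA per cell cannot be told apart.

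Of the adipocyte markers 7 of 10 were measured, and they were bright in both groups. Fabp4, the fatty acid binding protein of adipocytes, had normalised log2 signals of 19.61, 20.18 and 19.13 on the LON arrays and 19.72, 19.54 and 20.35 on the control arrays. The median probe stood at 9.56 on this scale, on which 1 unit is a factor of 2. Plin1, another of the 7, had 12.43, 14.85 and 11.96 on the LON arrays and 15.00, 14.66 and 14.92 on the control arrays. Its log2 fold change was -1.78 (limma adjusted p = 0.0917), with arrays 1 and 3 below array 2. Of the 7 differences 3 were positive and 4 negative. None of the 7 differed by limma (before adjustment 2 were higher and 1 lower, and none passed by the methods' t-test after adjustment). The summed signal of the list was 1160000 to 1630000 on the LON arrays and 1130000 to 1670000 on the control arrays.

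Among the 3 LON arrays, arrays 1 and 3 stood apart. On the first principal component of all 45 arrays, which carried 14% of the variance, LON array 1 had a score of 195, array 3 of 120 and array 2 of 4.8. The 3 control arrays of day 56 lay between -24.4 and 0.3. In all, 5 arrays of the series had scores from 78.6 to 195, and the other arrays lay between -45 and 4.8. Array 1 had a correlation across probes of 0.861 with array 2 of the same pool, and 0.941 with LON array 3 of day 21, an array of another pool. With the 3 control arrays the correlation was 0.838 to 0.850 for array 1, 0.892 to 0.902 for array 3 and 0.923 to 0.937 for array 2, beside 0.933 to 0.950 among the controls. Median raw signals were 1116.7, 887.4 and 1324.1 on the LON arrays and 637.5, 708.1 and 548.2 on the control arrays. Since the 3 LON arrays hold the same RNA pool, a difference between them is not one between mice. A pair of further fits, added after the data were seen, are therefore given beside the results. One kept only LON array 2, with the spread taken from the other groups, and the other had the first principal component as a covariate.

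By limma 216 of 33012 probes were higher in LON than in control fat at day 56 (0.654%) and 291 were lower (0.881%), while an unadjusted p under 0.05 was reached by 2134 higher and 2658 lower probes. Of the called probes 127 of the higher and 162 of the lower carried 1 gene symbol. With LON array 2 alone 143 probes were higher (0.433%) and 16 lower (0.0485%), of which 82 and 12 were among the calls from all arrays. With the principal component as a covariate 155 were higher (0.47%) and 29 lower (0.0878%), of which 134 and 25 were among them. Leaving out 1 array also moved the counts. They were 130 higher and 46 lower without LON array 1, 1042 and 787 without LON array 2, and 166 and 146 without LON array 3. They were 132 and 80 without control array 1, 126 and 121 without control array 2, and 120 and 103 without control array 3. Higher calls were 42.6% of all calls with quantile normalisation, 52.7% with the deposited values, 37% with median scaling and 55.9% with cyclic loess.

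By their medians, the rises and the falls differed in how the LON arrays agreed. The 183 rises that were not called at every age had a median log2 difference from the control mean of 2.82 on LON array 1, 2.13 on array 2 and 2.53 on array 3. The 291 falls had medians of -1.72, -0.79 and -1.48 on the same arrays. Many probes of both sets went against these medians, and their number was not counted. The following are examples picked after their values were seen. Among the rises, 1 probe had differences of 7.77, 0.94 and 6.30 on arrays 1, 2 and 3, and another 7.22, 1.13 and 4.68. Among the falls, 1 probe had -2.60, -2.52 and -2.42. LON array 2 lay above all 3 control arrays for 213 of the 216 rises, and below all 3 for 241 of the 291 falls. Over all probes array 2 was above all 3 controls for 28.1% and below them for 29.9%. The direction on array 2 was that of the call for all 216 rises and for 262 falls. Since the calls use array 2 and the same control arrays, these counts are partly set by the choice of probes and do not test the calls.

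**Figure D1:**
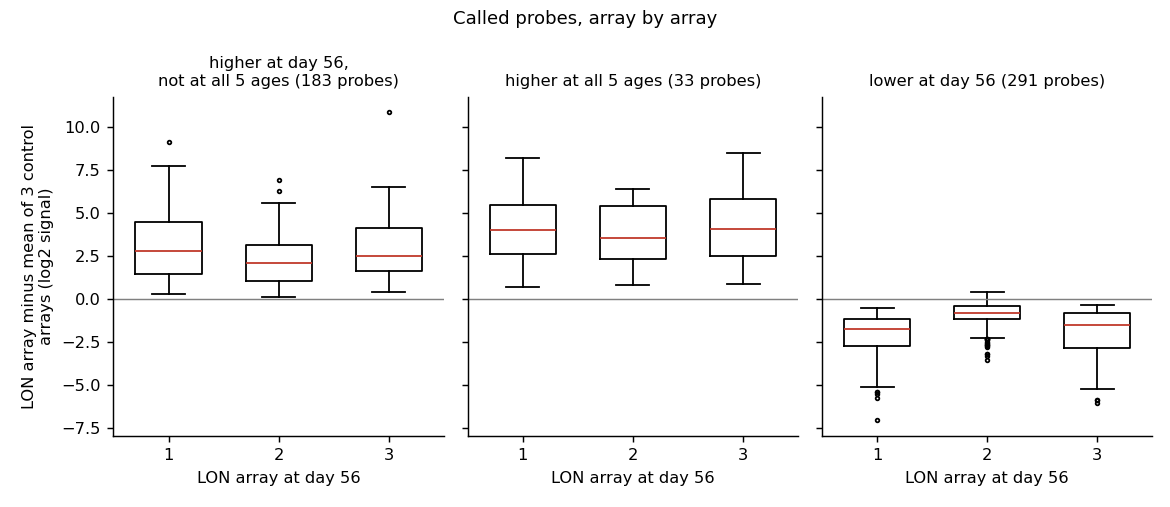
Difference of each LON array of day 56 from the mean of the 3 control arrays (log2 normalised signal) for the called probes, as boxes with the median in red, whiskers to 1.5 times the interquartile range and single probes beyond. The falls have medians of -1.72, -0.79 and -1.48 on arrays 1, 2 and 3, and the probes higher at all 5 ages 4.02, 3.55 and 4.11.

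Genes of fast skeletal muscle fibres were higher in LON fat. Of 14 measured skeletal muscle markers 13 were higher in LON than in control fat at day 56 and none was lower, with a median log2 fold change of 5.17, beside -0.10 for all 13840 named genes. The median was 5.04 with LON array 2 alone and 5.18 with the principal component as a covariate, with 12 and 13 of the 14 higher. Once probes called at all 5 ages were set apart, the 10 largest rises among named genes brighter than the median probe, with every LON array above every control array, were Mybpc2, Ckm, Myoz1, Acta1, Atp2a1, Tpm1, Tnnt3, Actn3, Pvalb and Myot. The summed signal of the 14 markers was 3740000 to 4600000 on the LON arrays and 141000 to 152000 on the control arrays, and 1260000 to 1340000 on the LUN arrays of the same age.

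Skeletal muscle contracts when calcium released from the sarcoplasmic reticulum frees the thin filament of actin, tropomyosin and troponin for myosin. Acta1 encodes the actin of that filament. It had log2 signals of 20.26, 20.31 and 20.74 on the LON arrays and 14.88, 15.06 and 15.24 on the control arrays, which differed by 5.38 on the log2 scale (standard error 0.22, limma adjusted p = 5.44e-19). Tnnt3, the troponin T of fast fibres, had 18.38, 18.33 and 18.67 on the LON arrays against 13.28, 13.21 and 13.27 on the control arrays (log2 fold change 5.21, standard error 0.20, adjusted p = 1.6e-19). The groups did not overlap, and the LON arrays lay within 0.5 of each other. Tpm1, a tropomyosin, differed by 5.25, and the fast troponins Tnnc2 and Tnni2 by 4.52 and 3.45.

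Genes of the thick filament and the Z-disc rose with them. Mybpc2, the myosin binding protein C of fast fibres, had 15.40, 14.90 and 15.17 on the LON arrays and 9.43, 7.62 and 8.80 on the control arrays. Its difference of 6.54 (standard error 0.32, adjusted p = 9.67e-17) was the largest of all named genes by limma, although the control signals lay below the median probe. Mylpf, a light chain of fast myosin, differed by 4.94. Of the Z-disc genes, Actn3, the actinin of fast fibres, differed by 5.20, Myoz1 by 5.40 and Myot by 5.00.

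Genes for calcium handling and energy supply of muscle followed. Ckm, the creatine kinase of muscle, had 17.81, 17.62 and 17.50 on the LON arrays and 12.54, 12.14 and 11.66 on the control arrays (log2 fold change 5.53, standard error 0.19, adjusted p = 7.94e-21). Atp2a1, the calcium pump of the fast sarcoplasmic reticulum, differed by 5.27, and a second probe for it by 4.22 (adjusted p = 5.8e-05). Pvalb, a calcium buffer of fast fibres, differed by 5.14. Eno3, an enolase of muscle, differed by 3.14 and Mb, the oxygen store myoglobin, by 2.56 (adjusted p = 0.0362). Actc1, the cardiac actin, was the member that did not pass (log2 fold change 2.50, adjusted p = 0.0771).

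Genes typical of slow fibres did not rise with the fast ones. A set of 7 was put together after the muscle values were seen, so its counts carry no test. Tnni1, the slow troponin I, had 8.07, 8.43 and 7.78 on the LON arrays and 7.95, 8.63 and 8.98 on the control arrays, all below the median probe. Myl2, a regulatory light chain of slow and cardiac myosin, had 12.33, 12.53 and 12.38 on the LON arrays against 12.40, 13.28 and 12.34 on the control arrays. The log2 differences of the 7 genes, which also include Myh7, Myl3, Myoz2, Tnnc1 and Tnnt1, lay between -0.81 and 0.65. None was called by limma, and before adjustment 0 passed by limma and 0 by the methods' t-test.

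**Figure D2:**
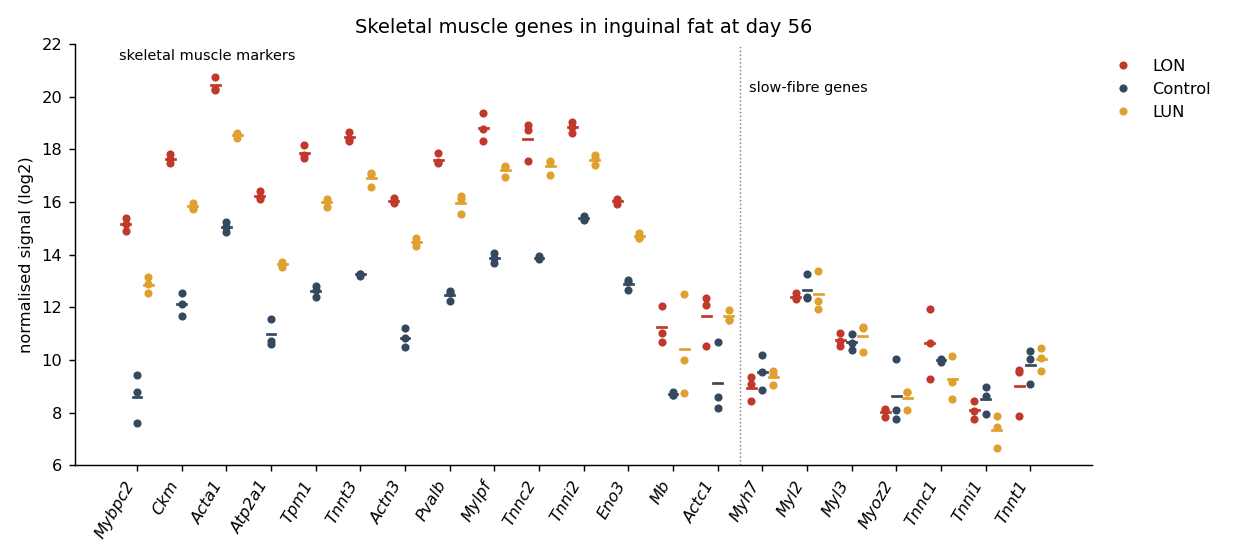
Normalised signal (log2) of 14 skeletal muscle markers and 7 slow-fibre genes in inguinal fat at day 56, with a point for each array (3 per group) and a bar at the mean, for LON, control and LUN. For the skeletal muscle markers from Mybpc2 to Eno3 the LON arrays are above the LUN arrays and these above the control arrays, whereas the slow-fibre genes overlap.

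The promoters of 2 of these genes are shown because the muscle genes moved together. They are the 250 bases before the start in RefSeq (GRCm38.p6), 5′ to 3′ on the strand of the gene, at chr8:123894776-123895025 (minus strand) for Acta1 and chr7:19410844-19411093 (plus strand) for Ckm. Capitals mark the letters CAGCTG, an E-box that MyoD proteins are known to bind, and in Acta1 also a CArG box, the motif of serum response factor. The 2 motifs did not overlap.
Acta1: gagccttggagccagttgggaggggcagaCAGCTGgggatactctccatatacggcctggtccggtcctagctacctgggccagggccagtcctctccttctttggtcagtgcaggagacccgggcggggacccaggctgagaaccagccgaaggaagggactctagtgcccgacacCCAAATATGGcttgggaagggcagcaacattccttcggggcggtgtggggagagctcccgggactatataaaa
Ckm: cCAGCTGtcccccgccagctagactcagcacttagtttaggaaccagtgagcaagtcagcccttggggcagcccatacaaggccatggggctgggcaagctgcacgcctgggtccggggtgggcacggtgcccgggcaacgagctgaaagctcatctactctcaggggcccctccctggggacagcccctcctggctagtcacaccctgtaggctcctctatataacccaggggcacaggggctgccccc
Both strands were searched. A window was listed for 6 of the 10 largest rises, and CAGCTG was in 3 of these 6 (Acta1, Atp2a1 and Ckm), beside 14.7% of 27025 genes with a window. It was in 2 of 10 windows of the largest falls. A CArG box was in 1 of the 6 and in 1.62% of all genes. The match is of letters only.

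The muscle genes differed in both directions over the ages. At day 112, after the high fat diet, the 14 markers had a median log2 fold change between LON and control of -4.33, while the earlier medians were -0.07 (day 5), 3.54 (day 10) and -1.79 (day 21). For Acta1 the LON and control means on day 10 were 20.14 and 16.81, on day 21 18.87 and 19.83, on day 56 20.44 and 15.06 and on day 112 15.30 and 19.66. Over the 15 pools the median level of the markers was lowest at 11.98 in LON fat at day 112, and highest at 17.63 in LON fat at day 56. Control fat at day 21 stood at 17.29 and at day 56 at 12.55.

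**Figure D3:**
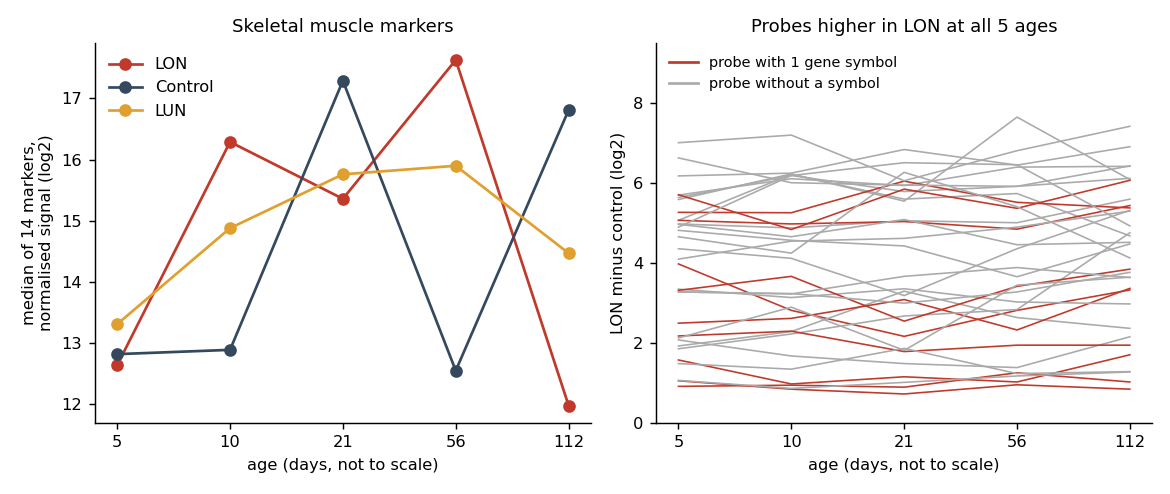
Left, median normalised signal (log2) of 14 skeletal muscle markers in the pools of each diet and age. LON lies above control at day 56 and below it at day 112. Right, log2 difference between LON and control at each age for the 33 probes higher in LON at all 5 ages. Every line lies above 0 because the probes were chosen so.

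Ucp1 and Fabp3, genes of brown fat, were lower in LON fat at day 56. Ucp1 had log2 signals of 15.93, 15.99 and 15.94 on the LON arrays and 16.88, 16.80 and 17.10 on the control arrays. The groups did not overlap and LON array 2 lay with the other LON arrays. Ucp1 thus differed by -0.97 (standard error 0.22, limma adjusted p = 0.0178). With LON array 2 alone it was -0.93 (adjusted p = 0.37) and with the principal component -0.86 (adjusted p = 0.138), and over 16 alternative settings the adjusted p from limma lay between 0.00375 and 0.37. The methods' t-test called none of the thermogenic genes after adjustment. It was also above the threshold without LON array 1 (adjusted p = 0.0859), LON array 3 (0.058), control array 1 (0.0592) or control array 3 (0.101), with log2 differences between -0.88 and -0.99.

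Fabp3, which carries fatty acids in brown fat and in muscle, had 12.09, 12.40 and 12.71 on the LON arrays and 14.01, 13.86 and 13.82 on the control arrays (log2 fold change -1.49, standard error 0.35, adjusted p = 0.0221). Array 2 alone gave -1.49 (adjusted p = 0.343), and the principal component as a covariate -0.88 (adjusted p = 0.358). Cidea, a lipid droplet protein of brown adipocytes, had 19.14, 18.73 and 18.73 on the LON arrays against 19.04, 19.43 and 19.33 on the control arrays, a log2 difference of -0.40 that did not pass (adjusted p = 0.575). Of 29 measured thermogenic fat genes Ucp1 and Fabp3 were lower and none was higher, and 24 differences were negative, while of all 13840 named genes 160 were lower and 7978 negative. The median of the list was -0.51 with 3 LON arrays and -0.19 with array 2 alone, beside -0.10 and -0.02 for all named genes. With array 2 alone and with the principal component none of the 29 was called. Ppargc1a, the coactivator of mitochondrial biogenesis, had 10.11, 11.20 and 9.88 on the LON arrays and 11.90, 11.82 and 11.73 on the control arrays (log2 fold change -1.42, adjusted p = 0.0566), with array 2 nearer to the controls than arrays 1 and 3. These values stand beside the higher muscle transcripts of the same LON pool, and the part of that difference in them was not tested.

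A few genes of the mitochondrial machinery were also lower. Of 65 mitochondrial ribosomal proteins 4 were lower by limma and none was higher (before adjustment 24 and 1), 54 differences were negative, and the median was -0.40. Of all 13840 named genes 160 were lower (before adjustment 1357) and 7978 negative, with a median of -0.10. The median was -0.38 with LON array 2 alone, -0.36 with the principal component, -0.32 with cyclic loess and -0.65 with median scaling, a setting that moved the median of all probes to -0.24. Mrpl34, a protein of the large subunit, had 15.06, 15.11 and 15.24 on the LON arrays and 16.04, 15.79 and 15.76 on the control arrays (log2 fold change -0.72, standard error 0.16, adjusted p = 0.0136). Mrpl34 was also lower in LON on day 112 (-0.64, limma adjusted p = 0.0268). Mrpl32 differed by -1.04, Mrpl4 by -0.79 and Mrpl36 by -0.77, and on each of the 3 LON arrays their signals were below those of every control array. The median of the 65 was also negative at the other ages, at -0.11 on day 5, -0.13 on day 10, -0.22 on day 21 and -0.35 on day 112. Relative to these 4 ages none of the 65 passed by limma. With array 2 alone or with the principal component none of the 65 was called.

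Of 39 measured genes in the list of the respiratory chain 4 were lower and none was higher (before adjustment 12 and none, 10 and none by the methods' t-test), with a median of -0.28. Of all 13840 named genes 160 were lower by limma (before adjustment 1357). Uqcr10 of complex III, which the list does not hold, was also lower (log2 fold change -3.03, limma adjusted p = 0.0123). It had 14.33, 18.29 and 14.85 on the LON arrays and 19.02, 18.70 and 18.85 on the control arrays. Ndufa5, a subunit of complex I, had 16.93, 16.67 and 16.45 on the LON arrays and 17.84, 18.28 and 17.71 on the control arrays (log2 fold change -1.26, standard error 0.30, adjusted p = 0.0221). Ndufa1, of the same complex, had 17.14, 16.62 and 16.93 on the LON arrays against 17.66, 17.48 and 17.89 on the control arrays (-0.78, adjusted p = 0.0371). Ndufa5 was also lower in LON on day 5 (-1.51, limma adjusted p = 0.00276) and day 112 (-1.33, adjusted p = 0.0117). Ndufa1 was also lower on day 5 (-1, adjusted p = 0.00312). Relative to the other 4 ages none of the 39 passed by limma, with Ndufa5 at -0.28 and Ndufa1 at -0.34. The other members called were Sdhb of complex II and Ndufa2 of complex I, in which arrays 1 and 3 were lower than array 2. Ndufa2 had 16.91, 18.23 and 17.36 on the LON arrays and 19.41, 18.64 and 18.91 on the control arrays. Sdhb had 15.41, 19.11 and 16.52 on the LON arrays and 19.66, 19.25 and 18.70 on the control arrays, so that array 2 lay within the controls. None was called with array 2 alone. Of the TCA cycle 14 genes were measured and none was called by limma (before adjustment 3 were higher and none lower, 2 and none by the methods' t-test), with a median of -0.08.

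Leptin did not pass the threshold. Lep had 15.82, 16.42 and 16.27 on the LON arrays and 15.40, 15.37 and 15.02 on the control arrays, so that every LON array was above every control array (log2 fold change 0.91, standard error 0.28, adjusted p = 0.0943). It passed in 3 of 16 other settings of the limma fit, and the adjusted p lay between 0.0253 and 0.414. Mest had 12.44, 12.74 and 12.93 on the LON arrays against 12.13, 12.40 and 12.22 on the control arrays (0.46, standard error 0.23, adjusted p = 0.354). In the list of adipokines and their receptors 1 of 15 was lower, Nrg4, a factor secreted by brown fat, at 13.27, 15.18 and 12.48 on the LON arrays and 15.59, 15.71 and 15.76 on the control arrays (-2.04, adjusted p = 0.0367, and -0.51 with array 2 alone). Of 70 genes in 5 lists of fatty acid synthesis, sterol synthesis, triacylglycerol synthesis, lipolysis and fatty acid uptake 0 were called by limma (before adjustment 5 were higher and 11 lower, and 8 and 6 in the methods' t-test, of which none remained after adjustment). In all, 25 of the 38 lists had no called member, with medians between -0.60 and 0.23. Of all 13840 named genes 120 were higher and 160 lower by limma. Of the adipocyte transcription factors 1 of 11 was called, Ebf1, an early B cell factor that also acts in adipocytes (log2 fold change 0.73, adjusted p = 0.0293, and adjusted p = 0.146 with array 2 alone).

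**Figure D4:**
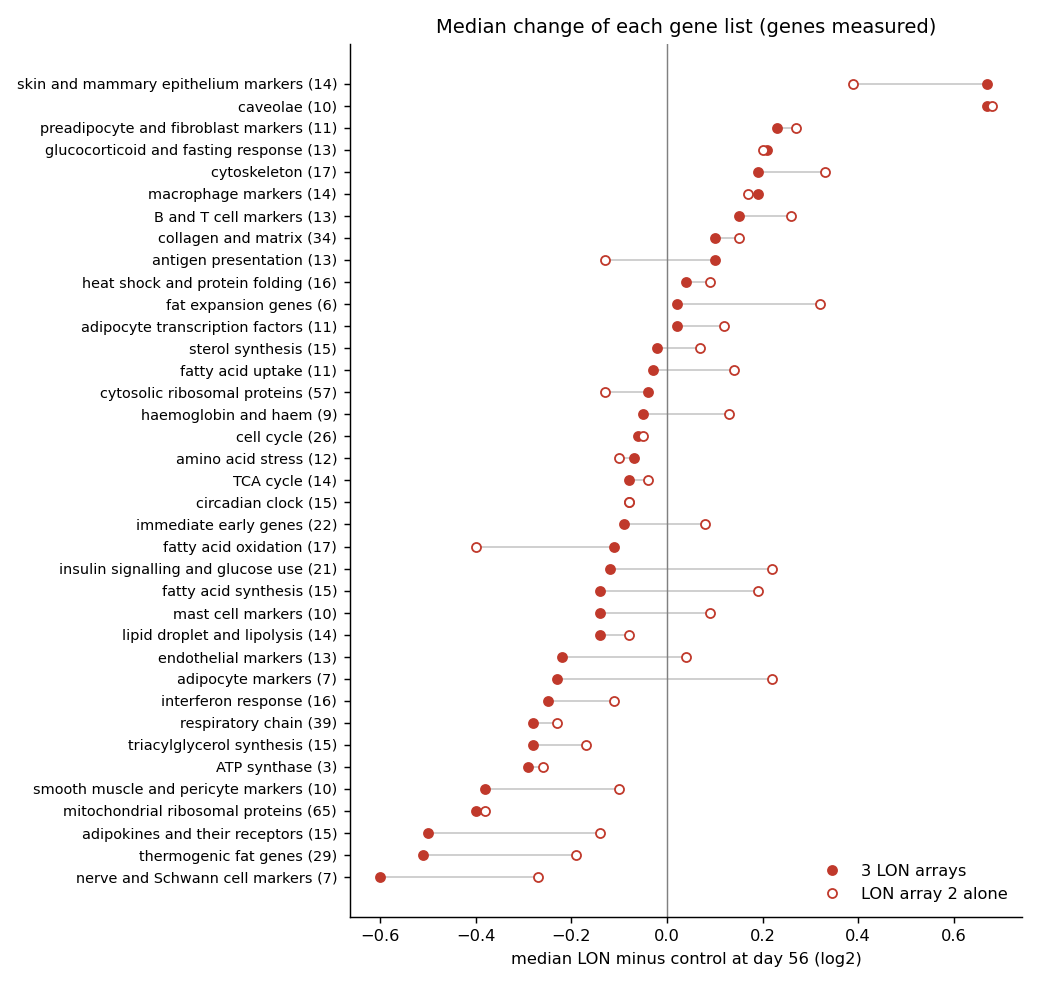
Median log2 difference between LON and control at day 56 over the measured genes of 37 lists (number in brackets), with all 3 LON arrays (filled) and with LON array 2 alone (open). The skeletal muscle markers (5.17 and 5.04) lie off this scale and are left out, and apart from them the medians from all 3 arrays lie between -0.60 and 0.67.

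Actb and Cavin1, of the cytoskeleton and the cell surface, were higher in LON fat. Actb, the common cytoplasmic actin, had 19.45, 19.49 and 19.42 on the LON arrays and 18.02, 18.03 and 18.05 on the control arrays (log2 fold change 1.42, standard error 0.23, adjusted p = 3.42e-04). It was the only one of 17 cytoskeleton genes called by limma, and it was called with array 2 alone (1.46, adjusted p = 0.0382). The other cytoplasmic actin, Actg1, had 18.97, 18.58 and 18.79 on the LON arrays and 19.19, 18.53 and 18.53 on the control arrays (0.03, adjusted p = 0.98), while a second, dimmer probe for Actg1 was called (0.95, adjusted p = 0.0499). Among 10 genes of caveolae, the membrane pits of adipocytes, 1 was called, Cavin1, and 9 differences were positive. Their median was 0.67, and 0.68 with array 2 alone. Of all 13840 named genes 120 were higher by limma and 5862 differences were positive. Cavin1, which coats these pits, had 13.02, 13.35 and 13.01 on the LON arrays against 11.90, 11.97 and 12.45 on the control arrays (1.02, standard error 0.24, adjusted p = 0.0236). Its probe is 1 of those called higher at every age, for which diet and a hybridization run cannot be told apart. Relative to the other 4 ages its difference at day 56 did not pass by limma (-0.33, adjusted p = 0.765). With array 2 alone (1.24, adjusted p = 0.153) and with the principal component (1.10, adjusted p = 0.0593) Cavin1 did not pass at day 56. Cav1, the main protein of the pits, had 17.33, 17.81 and 17.22 on the LON arrays and 16.26, 16.04 and 16.33 on the control arrays without passing (1.24, adjusted p = 0.142). The muscle caveolin Cav3 had 10.17, 10.55 and 10.83 on the LON arrays and 9.33, 9.13 and 10.69 on the control arrays (0.80, adjusted p = 0.54).

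Of 14 markers of skin and mammary epithelium 2 were higher, Krt18 and Epcam, and none was lower, beside 120 higher and 160 lower of all 13840 named genes. Of the 14 differences 9 were positive and 5 negative. Relative to the other 4 ages 1 of the 14 was higher and 3 were lower by limma. The median of the 14 was 0.67, and 0.39 with array 2 alone. Krt18, a keratin of simple epithelia, had 11.12, 11.37 and 11.60 on the LON arrays and 9.32, 8.94 and 8.07 on the control arrays (log2 fold change 2.59, standard error 0.45, adjusted p = 7.97e-04). Epcam, an adhesion molecule of epithelia, had 11.51, 11.61 and 11.92 on the LON arrays and 9.95, 10.17 and 8.79 on the control arrays (2.04, adjusted p = 0.04). Krt8, the partner keratin of Krt18, had a log2 difference of 2.15 without passing (adjusted p = 0.0991). With array 2 alone Krt18 (2.59, adjusted p = 0.0709) and Epcam (1.98, adjusted p = 0.508) did not pass. The LUN arrays had means of 11.83 for Krt18 and 11.95 for Epcam, near those of LON. Krt14 and Krt5, keratins of the basal layer of skin, had log2 differences of -0.04 (adjusted p = 0.991) and 1.06 (adjusted p = 0.232). The summed signal of the list was 52000 to 75200 on the LON arrays and 37300 to 54400 on the control arrays.

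Genes called in all 3 fits, which were picked out after the values were seen, numbered 38 higher and 2 lower once those called at every age were set apart. Among the 38 were the giant sarcomere protein Ttn (4.67, with a second probe at 1.62 and an adjusted p of 0.172), the muscle enzymes Pgam2 (4.96) and Pygm (4.84), the elongation factor Eef1a2 (3.95) and Rpl3l (3.79), a muscle counterpart of ribosomal protein L3 and the only member higher in the list of cytosolic ribosomal proteins. Ptn, the secreted growth factor pleiotrophin, had 12.78, 13.28 and 12.92 on the LON arrays and 11.44, 10.86 and 11.01 on the control arrays. The LUN arrays of the same age had 12.37, 12.46 and 12.26. LON and control differed in Ptn by 1.89 (standard error 0.32, limma adjusted p = 5.44e-04). Clec14a, a lectin of endothelium, differed by 2.49, Pkia, an inhibitor of protein kinase A, by 2.72 and Sptbn1, a spectrin of the membrane skeleton, by 1.70, with a second probe for Sptbn1 at 0.34 (adjusted p = 0.654). Sptbn1 was also higher in LON on day 10 (1.91), day 21 (1.45) and day 112 (1.64). None of 13 endothelial markers was called by limma (before adjustment 1 was higher and 1 lower, and none passed by the methods' t-test after adjustment). Plcb1, a phospholipase C, had 10.03, 9.89 and 10.74 on the LON arrays against 12.39, 12.49 and 12.33 on the control arrays, a difference of -2.18 (standard error 0.24, adjusted p = 1.14e-07). Plcb1 was also lower in LON on day 5 (-1.36), day 10 (-1.46) and day 112 (-1.27). Coprs, a partner of the arginine methyltransferase Prmt5, differed by -1.20 (adjusted p = 0.00178).

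**Figure D5:**
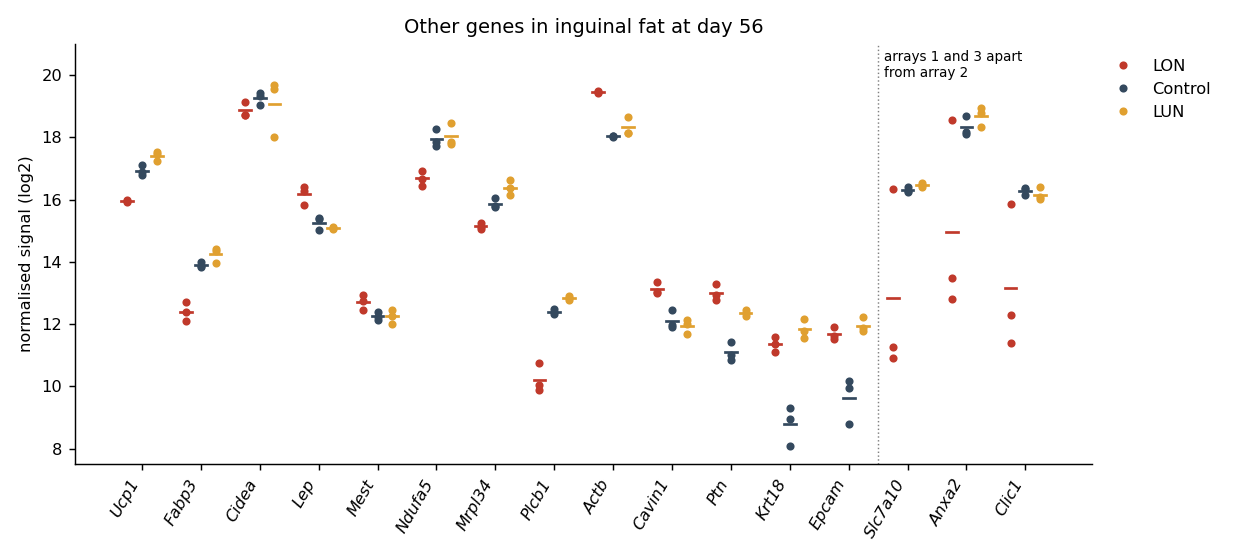
Normalised signal (log2) of 16 genes in inguinal fat at day 56, with a point for each array (3 per group) and a bar at the mean, for LON, control and LUN. Ucp1, Fabp3 and Plcb1 are lower and Actb, Ptn and Krt18 higher on all 3 LON arrays than on any control array, whereas for Slc7a10, Anxa2 and Clic1 arrays 1 and 3 lie far below array 2.

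By the same rule as the rises, which leaves out genes whose LON and control arrays overlapped, the 10 largest falls were Psmb4, Vps25, Clic1, Uqcr10, Cnpy2, Srsf9, Tmed4, Pmm1, Pdzk1ip1 and Bst2. Psmb4, a subunit of the proteasome, had 13.20, 17.38 and 14.51 on the LON arrays and 18.72, 18.89 and 18.11 on the control arrays (log2 fold change -3.55, standard error 0.73, adjusted p = 0.00631). Clic1, a chloride channel protein, had 11.38, 15.86 and 12.28 on the LON arrays against 16.36, 16.35 and 16.15 on the control arrays (-3.11, adjusted p = 0.00658). In both genes array 2 lay within 2 units of the controls and arrays 1 and 3 several units below. With array 2 alone the log2 differences were -1.20 for Psmb4, -0.43 for Clic1, -0.44 for Vps25, an endosomal sorting subunit, and -0.57 for Uqcr10, a subunit of complex III. They were -0.09 for Srsf9, a splicing factor, and -0.60 for Cnpy2. None of the 10 passed with array 2 alone, and of the 10 only Cnpy2 passed with the principal component as a covariate (-1.56, adjusted p = 0.0379).

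Other called genes showed the same split. Slc7a10, an amino acid transporter of white adipocytes, had 10.90, 16.35 and 11.26 on the LON arrays and 16.25, 16.28 and 16.40 on the control arrays. Anxa2, a membrane binding annexin, had 12.81, 18.55 and 13.49 on the LON arrays against 18.16, 18.11 and 18.69 on the control arrays. Their log2 fold changes were -3.48 and -3.37, and they are not among the 10 because array 2 lay within the controls. Both were chosen after their values were seen. Irf1 and Bst2, the members called in the interferon list, had differences of -2.50 and -2.38 with 3 arrays and of -0.03 and -0.69 with array 2 alone. Psph, of serine synthesis, differed by -2.24 and -0.66, and Rpl31 by -2.02 and 0.04 in the same fits. The 2 other probes for Rpl31 did not pass (adjusted p = 0.14 and 0.769).

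Probes that differed at every age were set apart. By limma 33 were higher in LON than in control fat at all 5 ages and none was lower. With an unadjusted p under 0.05 at every age 96 were higher and 30 lower. The share of all probes called on day 5 was 1.06% higher and 0.703% lower, on day 10 0.66% and 0.0788%, on day 21 0.918% and 0.485% and on day 112 1.48% and 0.897%. Of the 33, 10 carry a gene symbol. Dgke, a diacylglycerol kinase, had 13.80, 14.01 and 14.40 on the LON arrays and 8.68, 8.89 and 8.09 on the control arrays of day 56 (log2 fold change 5.51, standard error 0.50, adjusted p = 1.87e-09). Its differences at days 5, 10, 21 and 112 were 5.26, 5.25, 6.04 and 5.37. Olfr1238, an olfactory receptor, differed at day 56 by 5.36, Plcg1, a phospholipase C, by 4.84 and Htr1d, a serotonin receptor, by 3.41. A second probe for Plcg1 did not pass (1.98, adjusted p = 0.301). Pdha1, of pyruvate dehydrogenase, had smaller differences of 1.05, 0.84, 0.72, 0.95 and 0.84 from day 5 to day 112. For the 33 probes the median was 4.09, 4.11, 3.66, 3.88 and 4.47 over the ages, and 0 of the 33 differed between day 56 and the other ages by limma. Against LUN fat at day 56, 32 of them were higher. The choice of these probes favours both counts, since it asked for calls at every age and used the same LON arrays. The sources used here do not give how arrays were divided into hybridization runs, so that diet and such a run cannot be told apart.

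Of the 183 rises not called at every age, those also higher numbered 20 on day 5 (10.9%), 53 on day 10 (29%), 20 on day 21 (10.9%) and 22 on day 112 (12%), beside 1.06%, 0.66%, 0.918% and 1.48% of all probes called higher on those days. Of all 216 rises, 27 were lower in LON at day 21 and 51 at day 112. Of the 291 falls, those also lower numbered 18 on day 5 (6.19%), 5 on day 10 (1.72%), 13 on day 21 (4.47%) and 18 on day 112 (6.19%), beside 0.703%, 0.0788%, 0.485% and 0.897% of all probes, and 252 were called lower at no other age.

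Set against the mean of the other 4 ages, the difference between LON and control at day 56 was higher for 69 probes (0.209%) and lower for 30 (0.0909%) by limma, and without LON array 2 the counts were 299 and 388. By the same rule the 6 largest rises were Mybpc2 (7.10), Ckm (6.47), Tpm1 (6.31), Tnnt3 (6.11), Pvalb (6.08) and Actn3 (5.97), and 12 of the 14 muscle markers passed. Actb passed at 1.24 (adjusted p = 0.0165) and Ptn at 1.98 (adjusted p = 0.00237). Ucp1 passed in the other direction, at -1.29 (standard error 0.25, adjusted p = 0.0057). Its LON and control means on day 5 were 16.06 and 15.52, on day 10 18.64 and 17.43, on day 21 20.03 and 19.56, on day 56 15.96 and 16.93 and on day 112 10.17 and 11.10. LON fat was thus above control fat at the 3 suckling and weaning ages and below it at the 2 later ones, and the differences of days 10 (adjusted p = 0.00126), 56 and 112 (adjusted p = 0.0188) passed. Fabp3 did not pass by limma against the other 4 ages (-0.79, adjusted p = 0.557). Its differences were 1.64 on day 10 (adjusted p = 0.0106) and -3.83 on day 112 (adjusted p = 2.77e-09). Recql4, a DNA helicase, had 9.28, 9.40 and 9.96 on the LON arrays and 11.70, 11.72 and 11.47 on the control arrays, a log2 fold change of -2.09 at day 56 and of -2.80 against the other ages (adjusted p = 3.4e-04). With array 2 alone Recql4 (adjusted p = 0.0156) and Krt25 (adjusted p = 0.0113) passed, and the other 4 of the 6 named falls of this comparison did not. Acaa1b, of peroxisomal fatty acid oxidation, had 12.63, 14.52 and 12.49 on the LON arrays against 15.24, 15.41 and 15.54 on the control arrays.

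Against LUN fat of the same age 591 probes were higher in LON (1.79%) and 833 lower (2.52%) by limma. These counts use the same LON arrays, and with array 2 alone they were 151 and 51. They were 298 and 235 without LON array 1, 1253 and 1073 without LON array 2, and 359 and 475 without LON array 3. The muscle markers were higher in LON than in LUN by a median of 1.59, with 11 of 14 called. Ckm had 17.81, 17.62 and 17.50 on the LON arrays and 15.96, 15.75 and 15.79 on the LUN arrays. Ucp1 had 15.93, 15.99 and 15.94 on the LON arrays against 17.25, 17.54 and 17.45 on the LUN arrays (log2 difference -1.46, standard error 0.22, adjusted p = 1.54e-04), and Fabp3 differed by -1.84 (adjusted p = 0.00218). Lep was higher in LON at 15.82, 16.42 and 16.27 than in LUN at 15.09, 15.05 and 15.13 (1.08, adjusted p = 0.0223). Of the mitochondrial ribosomal proteins 18 of 65 were lower in LON than in LUN fat and none was higher, with a median of -0.56. Krt18 (-0.47, adjusted p = 0.641), Epcam (-0.27, adjusted p = 0.856) and Ptn (0.63, adjusted p = 0.281) did not differ by limma between these groups.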

How the data were processed

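Inguinal fat of 15 pools (3 diets, 5 ages) was measured on 45 arrays. The raw signal intensity values deposited by the authors, for 33012 probes per array, were used for all results. The log2 values deposited by the authors, which they had quantile normalised, served as an alternative. The sources used here do not give the scanner's background step, the files used hold no detection calls, and the number of arrays limits the precision.

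Intensities were quantile normalised over the 45 arrays and log2 transformed without an offset. A model with a mean for each diet and age was fitted with limma 3.58.1 in R 4.3.3 (lmFit and eBayes, prior degrees of freedom 2.74), and p-values were adjusted over all probes by the Benjamini-Hochberg method, with a threshold of 0.05. The fit was first tested on simulated data. Of the probes 14411 carried 1 symbol, 247 several and 18354 none, and 14402 gene IDs matched RefSeq. Of 13840 genes, 540 had more than 1 probe, and the brightest was taken for lists.

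The members and the 38 lists were chosen with earlier results of these data known. Named genes were the 10 largest rises and falls among called probes with 1 symbol, a mean above that of the median probe and LON arrays clear of all control arrays, outside those called at all 5 ages. Up to 4 called members of each list, the 6 largest rises and falls relative to the other ages, the 4 largest at all 5 ages, and Ucp1, Cidea, Fabp3, Lep and Mest were added. Clone names were left out, and other genes are named as members of lists or as chosen after their values were seen.

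Alternatives were the deposited values, median scaling, cyclic loess, quantile normalisation of the 6 arrays alone, an offset of 211, only probes above the median signal, a trend in the prior variance, array weights, a replicate block, leaving out each array, and the methods' t-test. Leaving out LON arrays 1 and 3 together, and the first principal component as a covariate, were chosen after seeing the data, as were some settings for the named genes. Figures were drawn with matplotlib 3.10.9.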

Additional observations from a re-analysis of the deposited data

Results flagged for a closer look

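For 12 genes the difference between LON and control at day 56 differed from the mean difference at the other 4 ages, by limma's test of that contrast. Among named genes with LON and control arrays that did not overlap, the 6 largest rises were genes of muscle, Mybpc2 at 7.10 (adjusted p = 2.4e-16), Ckm at 6.47 (3.35e-21), Tpm1 at 6.31 (1.66e-17), Tnnt3 at 6.11 (3.46e-20), Pvalb at 6.08 (6.85e-16) and Actn3 at 5.97 (1.89e-17), all on the log2 scale.

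The 6 largest falls were Pdzk1ip1 at -3.34 (adjusted p = 0.00491), Krt25, a keratin of the hair follicle, at -3.25 (0.000105), Recql4 at -2.80 (0.00034), Acaa1b at -2.52 (0.00199), Klk1 at -2.43 (0.00244) and H2-Q10 at -2.12 (0.01). Krt25 (-0.97, adjusted p = 0.27) and H2-Q10 (-0.32, adjusted p = 0.792) were not called at day 56 itself. For Krt25 the differences at days 5 and 10 were 4.19 and 4.47. H2-Q10 has near-identical family members, so its probe may not measure it alone. With LON array 2 alone Krt25 (-3.33, adjusted p = 0.0113) and Recql4 (-2.94, 0.0156) passed. Pdzk1ip1 (-2.51, 0.465), Acaa1b (-1.21, 0.839), Klk1 (-2.10, 0.23) and H2-Q10 (-2.06, 0.227) did not.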

How the results depend on the processing

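Over 16 settings of the limma fit, 52 of 53 named genes kept their direction and 18 also their side of the threshold. The fit of the 6 arrays alone and the methods' t-test are not part of this count, and the adjusted t-test called 7 of the 14 muscle markers and none of the ribosomal proteins. Rpl31 changed sign, with a log2 difference of 0.04 without LON arrays 1 and 3. The counts of probes higher and lower in LON than in control at day 56 were 120 to 1042 and 46 to 787 when 1 array was left out. Higher counts were 348 with cyclic loess, and 331 with 705 lower among probes above the median signal. With array weights they were 1211 and 1025, without LON arrays 1 and 3 143 and 16, and with only the 6 arrays 57 and 2. The methods' t-test gave 1331 and 2527 unadjusted and 12 and 1 adjusted. Lower counts were 500 with the variance trend and 29 with the principal component.

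Relative to the other ages, counts were 51 to 299 higher and 20 to 388 lower when 1 array was left out, and 495 and 464 with array weights. Lower counts were 70 with median scaling, 52 with the offset, 47 among probes above the median signal and 9 without LON arrays 1 and 3. Probes higher at all 5 ages numbered 30 to 33 when 1 array was left out, and none was lower. With the offset, with probes above the median signal and with the trend 1 was lower, and with array weights 2. Against LUN the counts were 298 to 1253 higher and 235 to 1073 lower when 1 array was left out, and 151 and 51 without LON arrays 1 and 3. They were 938 higher among probes above the median signal, and 295 lower with median scaling and 313 with the principal component. Except where a setting leaves out arrays or probes, the cause was not tested.

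Same-numbered LON and control arrays of day 56 did not deviate together (correlations -0.0782, 0.0213 and -0.0299). The main fit therefore used no pairing by number, and whether such arrays shared a run was not tested. With the replicate number as a block 222 probes were higher and 282 lower. Each group is 1 pool, so mouse-to-mouse variation was not measured. Signals near the median probe of 9.56 may lie close to background.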
